A study of Mus musculus with 16 samples.

Results

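Interferon-stimulated genes were followed in sorted mouse lung group 2 innate lymphoid cells (ILC2s), which are tissue-resident lymphocytes that release type 2 cytokines. The set held 37 genes, chosen by name as interferon response genes and found by their Ensembl identifiers among the 51912 genes of the count table. All 37 were found, and 28 of them had enough reads to enter the tests, which ran over 14979 genes. ILC2s of WT mice and of mice lacking PAC1, the phosphatase encoded by Dusp2 (Pac1-/-), all on the C57BL/6J background and 6 to 8 weeks old, were stimulated for 4 hours. The authors' culture methods describe an expansion of sorted lung ILC2s with IL-2 and IL-7 before stimulation. Their RNA sequencing methods do not say whether these cells were expanded first. The 4 treatments were IL-7 alone, IL-7 with the alarmin IL-33, IL-7 and IL-33 with the neuropeptide CGRP, and IL-7 and IL-33 with the neuropeptide NMU, so every group received IL-7. They are called IL-7, IL-33, CGRP, and NMU here. The 8 groups had 2 libraries each, 16 in all, every one made from about 500 sorted ILC2s. Nothing in the sources used here says whether the 2 libraries of a group came from separate mice or cultures, so P values measure the spread between these libraries, which may be technical.

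Interferons are secreted by infected or activated cells and bind receptors at the surface of their neighbours. Type I interferons act through IFNAR1 and IFNAR2, and interferon gamma acts through IFNGR1 and IFNGR2. Janus kinases at these receptors start signalling that reaches DNA at the interferon-stimulated response element (ISRE), bound by a complex that holds STAT2 and IRF9, and at the gamma-activated site (GAS). The genes switched on in this way sense viral RNA, block translation and viral budding, and feed peptides to MHC class I molecules. In ILC2s, type I interferon and interferon gamma are known as restraints on type 2 cytokine output. The genes are described here by role, from sensors and transcription factors to effectors, GTPases, and antigen processing.

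The 2 elements were looked for in the RefSeq promoter windows of the GRCm38.p6 build, which run from 250 bases before to 50 bases after a transcript start. Of the 37 genes, 29 had a window. The ISRE core, taken as GAAA, any 2 bases, and GAAA again on either strand, was present for 15 of these 29, or 51.7%, against 3.99% of all 27025 genes with a window. The GAS pattern TTCNNNGAA, whose complement on the other strand has the same form, was present for 9 of 29, or 31%, against 9.55% of all genes, and 20 genes had at least 1 of the 2. The matches of both patterns can overlap, as they did in Bst2. The following stretches are shown because they hold the matches of genes at both ends of the expression range, with matched bases in capitals. Isg15, Ifit3, and Rsad2 had no or few reads, Gbp7 and Igtp are GTPases with reads in nearly every library, and Irf1 and Psmb8 carry only the GAS pattern.
Isg15, chr4:156200855-156200916, minus strand: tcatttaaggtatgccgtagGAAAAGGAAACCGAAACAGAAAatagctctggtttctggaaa
Ifit3, chr19:34583353-34583436, plus strand: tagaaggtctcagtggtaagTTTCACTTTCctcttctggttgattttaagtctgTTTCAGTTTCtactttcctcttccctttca
Rsad2, chr12:26456543-26456592, minus strand: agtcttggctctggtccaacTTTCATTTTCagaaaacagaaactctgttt
Gbp7, chr3:142530210-142530312, plus strand: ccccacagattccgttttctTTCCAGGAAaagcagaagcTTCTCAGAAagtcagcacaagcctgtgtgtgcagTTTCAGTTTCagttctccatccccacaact
Igtp, chr11:58199491-58199551, plus strand: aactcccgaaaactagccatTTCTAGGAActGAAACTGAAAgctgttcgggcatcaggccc
Irf1, chr11:53769904-53769952, plus strand: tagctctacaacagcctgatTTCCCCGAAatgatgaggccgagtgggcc
Psmb8, chr17:34198088-34198116, plus strand: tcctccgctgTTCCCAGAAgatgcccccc
The Isg15 stretch holds 3 overlapping ISRE matches, in a gene with no read in any library. The Psmb8 stretch lies in an exon of another Psmb8 transcript in the GENCODE M21 annotation, whereas the other 6 touch no exon. A match describes letters in a window and is not a binding site.

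Total counts per library ran from about 6764990 to about 15963400, with a median of about 11071300. Levels are given as counts scaled to a total of 1e+06 per library (CPM) with TMM factors, and 3 counts, taken as the floor of detection, equalled 0.171 to 0.462 CPM depending on the library, which covers counting error only because no molecular identifiers are described. The 12 ILC2 markers examined, among them Gata3 and Il1rl1, were each found with 10 or more counts in at least 1 library of every treatment, with a summed level of 8845 to 13125 CPM. Where 4 values are given for a treatment, the 2 WT libraries come first, followed by the 2 Pac1-/- libraries. Dusp2 had no read in 8 of 8 Pac1-/- libraries but also none in 6 of 8 WT libraries, the others having 57 and 29 counts, so it could not check most genotype labels. In bulk RNA, fewer cells that use a gene and less of its RNA per cell cannot be told apart. Scatter between the 2 libraries of a group was large, with a common biological coefficient of variation of 0.985 over the tested genes. For 13 of the 28 tested genes, at least 1 group had one library without a read and the other with 10 or more counts.

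The interferon-stimulated genes of these ILC2s ranged from a few that were well expressed, through a graded middle, to others that were close to silent. Per kilobase of exon, Ifi27 led with 74.2 ± 18.7 CPM per kb (SD, n = 16), Ifi35 had 68.8 ± 19.7, and Psmb8 had 60.6 ± 17.8. These 3 did not differ beyond their spread, and they were above 93.9%, 93.5%, and 92.9% of the tested genes. Isg20, which encodes an RNA exonuclease, followed with 21.6 ± 9.72 CPM per kb, and its range of 1 SD did not reach that of the leading group. Gbp2, Igtp, and Irgm1, which encode GTPases with a part in defence against intracellular pathogens, had 14.4 ± 8.21, 13.5 ± 10.8, and 11.6 ± 7.74 CPM per kb and could not be ordered among themselves. The levels of Gbp7, Psmb9, Irf1, Bst2, Ddx58, Xaf1, Dtx3l, and Irf9 ran on from 8.71 down to 3.69 CPM per kb without a gap larger than their spread. At the lower end of the tested genes, Irf7 had 0.373 ± 0.341 CPM per kb, Oas3 had 0.254 ± 0.571, and Rsad2 had 0.203 ± 0.511. Irf7 is the transcription factor that amplifies type I interferon, Oas3 makes the 2-5A messenger that activates RNase L, and Rsad2 encodes viperin.

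The 9 genes that did not enter the tests are among the classic antiviral effectors. Isg15, the ubiquitin-like modifier, had 0 counts in all 16 libraries. Ifit2 had 3 counts in 1 library, Mx2 had 3 counts in all, Oasl1 had 6, Ifit3 and Mx1 had 8 each, Oas2 had 9, and Ifi44 had 26 over the 16 libraries. Oasl2 had 69 counts, of which 61 came from 1 library. How reads shared by several genes were counted is not given in the sources used here, and this touches part of these low values. Ifit3 is 97.8% identical to Ifit3b over 1700 bases, and Ifit3b had 0 counts. Mx1 and Mx2 are 95.3% identical over 843 bases, and the GENCODE M21 annotation lists Mx2 as a polymorphic pseudogene. Isg15 is 95.2% identical over 482 bases to AC151275.1, a gene model that the count table does not list. Ifit1, the cap-recognizing relative of Ifit2 and Ifit3, had no near-identical partner and was without a read in 9 of 16 libraries. Some tested genes also shared near-identical stretches with other genes. Ddx58 did so with 168 genes, Xaf1 with 41, Stat2 with 32, Dtx3l with 31, and Irf9 with 13. These stretches covered up to 32.6% of a Ddx58 transcript and 38.3% of a Stat2 transcript. Their part in the levels of these genes was not tested.

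**Figure D1:**
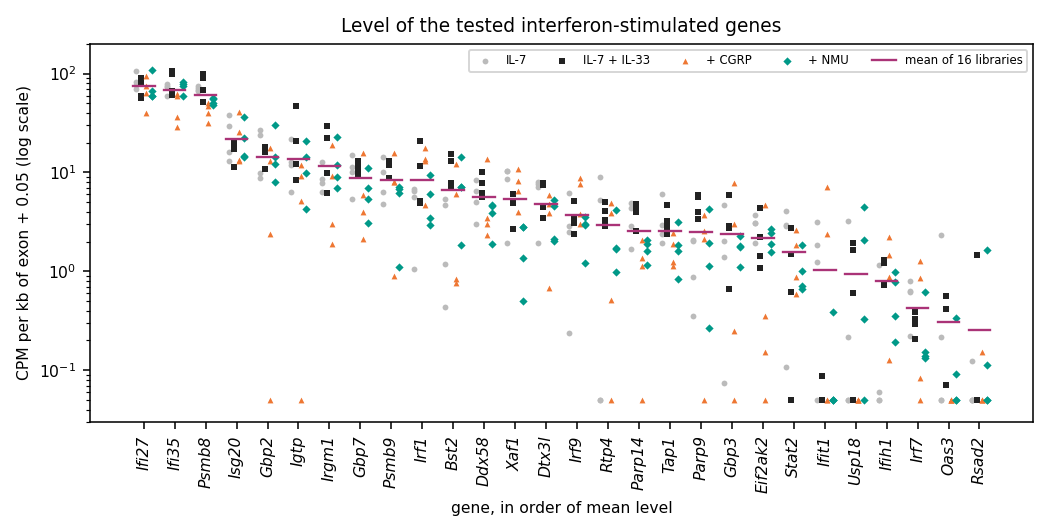
CPM per kb of exon, with 0.05 added for the log axis, of the 28 tested interferon-stimulated genes in order of mean level; points are the 16 libraries, with a marker for each treatment, and bars are means. Ifi27, Ifi35, and Psmb8 stand above the rest, and points on the lowest line are libraries without a read.

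**Figure D2:**
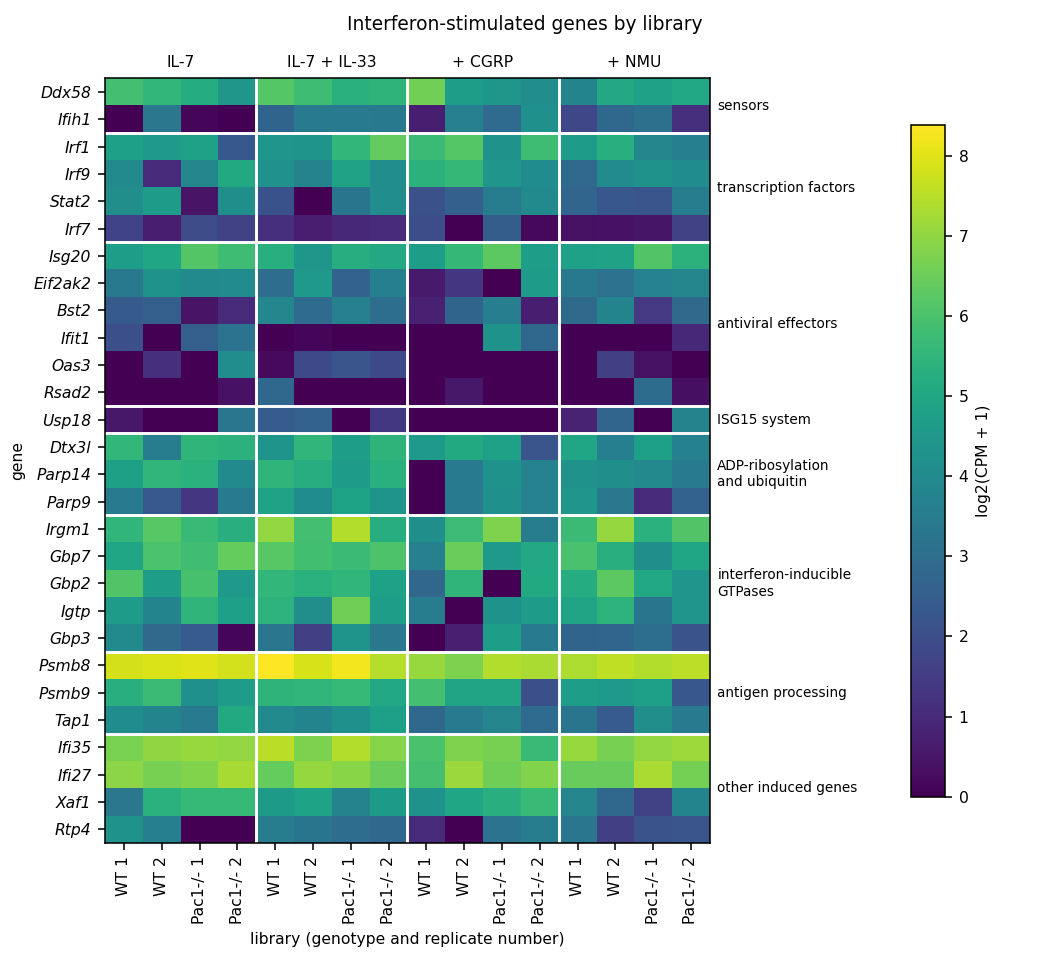
Log2(CPM + 1) of the 28 tested genes (rows, grouped by role) in the 16 libraries (columns, grouped by treatment and genotype). Psmb8, Ifi35, and Ifi27 are high in every library, and neighbouring replicate columns differ for many of the other genes.

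The summed level of all 37 genes was 960 to 1042 CPM in the 4 IL-7 libraries and 956 to 1327 CPM in the 4 IL-33 libraries. It was 628 to 882 CPM in the CGRP libraries and 773 to 899 CPM in the NMU libraries. The CGRP and NMU libraries overlapped, and all 8 of them lay below the 8 libraries of the other treatments. Psmb8 alone supplied 106 to 335 CPM in single libraries. Without it the ranges were 729 to 806 with IL-7, 757 to 1024 with IL-33, 494 to 770 with CGRP, and 588 to 708 with NMU. The CGRP range then reached into those of IL-7 and IL-33, while the NMU range stayed under both. No test was run on these sums.

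IL-33 is the alarmin that activates ILC2s, and the first comparison asked what it added to IL-7. No interferon-stimulated gene passed the threshold of a Benjamini-Hochberg adjusted P under 0.05 and a fold above 1.5 in edgeR's quasi-likelihood test, which called 0.0334% of all tested genes. Without adjustment 4 of the 28 had P under 0.05, and DESeq2 called 1 of 28, Rtp4, where it called 1.98% of all genes. The share of all tested genes with an unadjusted P under 0.05 was not counted in any comparison. The median log2 fold change of the 28 was 0.20, with 17 above 0, beside 0.08 for all tested genes. Rtp4 encodes an interferon-induced chaperone that carries receptors to the cell surface. It was at 18.9 and 11.2 CPM in WT and at 0 in both Pac1-/- libraries with IL-7, and at 10.7 and 8.51 CPM in WT and 7.003 and 6.03 CPM in Pac1-/- libraries with IL-33. The 2 genotypes thus lay on opposite sides of their IL-33 levels, and the log2 fold change averaged over both, 4.27 ± 1.203 (SE, edgeR adjusted P = 0.34, DESeq2 adjusted P = 0.025), depends on how the 0 counts of the Pac1-/- IL-7 libraries are fitted and is no bound.

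Ifih1, which encodes the double-stranded RNA sensor MDA5, had 0 and 8.99 CPM in WT and 0.0872 and 0 CPM in Pac1-/- IL-7 libraries. With IL-33 it had 5.58 and 10.2 CPM in WT and 9.74 and 9.46 CPM in Pac1-/- libraries. With IL-7 all but 1 of its counts came from WT replicate 2, so the groups overlapped there (log2 fold change 4.15 ± 1.56, edgeR adjusted P = 0.44). Ifit1 went the other way, with 3.13, 0, 4.80, and 8.24 CPM in the 4 IL-7 libraries and 1 count in 1 of the 4 IL-33 libraries (edgeR adjusted P = 0.39). Bst2, which encodes tetherin, was at 0.349 to 4.86 CPM with IL-7 and 6.61 to 13.9 CPM with IL-33, with no overlap (edgeR adjusted P = 0.46). Bst2 was named after its values were seen. How many of all tested genes were without overlap between 2 treatments was not counted in any comparison. Psmb8 was nearly level, at 238 ± 12.3 CPM with IL-7 and 262 ± 71.7 CPM with IL-33 (SD, n = 4). Some markers of other lymphocytes moved with this comparison. The summed level of 5 NK cell and ILC1 markers was 118 to 234 CPM with IL-7 and 0 to 4.55 CPM with IL-33. Their defining factor Tbx21 was at 0 throughout. The sum of 5 T cell markers was 237 to 338 CPM with IL-7 and 33.8 to 159 CPM with IL-33. Cd4 and Cd8a were at 0 in both treatments. With IL-7, Gzma alone reached 222 CPM and Cd3g alone 256 CPM. Lung epithelial markers summed to 14.6 to 41.0 CPM with IL-7 and 42.3 to 83.3 CPM with IL-33, with Sftpc at 0 in both. Mitochondrial genes took 8.60 to 10.2% of counts with IL-7 and 3.94 to 7.96% with IL-33. The part of these measures in the values above was not tested.

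CGRP, which restrains ILC2s, gave the only edgeR call in the set. Psmb8 fell when CGRP was added to IL-33, from 262 ± 71.7 to 143 ± 28.4 CPM (SD, n = 4). It encodes the beta 5i subunit of the immunoproteasome, which cuts proteins into peptides for MHC class I. The gene lies on chromosome 17 at 34197721 to 34201454 (GRCm38), on the plus strand, within the MHC region. With IL-33 the WT libraries had 335 and 233 CPM and the Pac1-/- libraries 304 and 175 CPM. With CGRP the WT libraries had 135 and 106 CPM and the Pac1-/- libraries 171 and 159 CPM. The 4 CGRP libraries therefore all lay below the 4 IL-33 libraries, although the highest of the former and the lowest of the latter were 171 and 175 CPM. The log2 fold change was -0.89 ± 0.21 (SE, edgeR adjusted P = 0.039, DESeq2 adjusted P = 0.0021). The call was lost when 1 of 5 libraries was left out, namely WT IL-33 replicate 1 (adjusted P = 0.21), Pac1-/- IL-33 replicate 1 (0.24), WT CGRP replicate 2 (0.10), Pac1-/- CGRP replicate 1 (0.057), or Pac1-/- CGRP replicate 2 (0.11), and when only the 8 libraries compared were fitted (0.14). The log2 fold change stayed between -1.04 and -0.66 when each of the 16 libraries was left out in turn. The exons of Psmb8 overlap those of Gm20496 on the opposite strand by 498 bases, and Gm20496 had 0 counts.

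**Figure D3:**
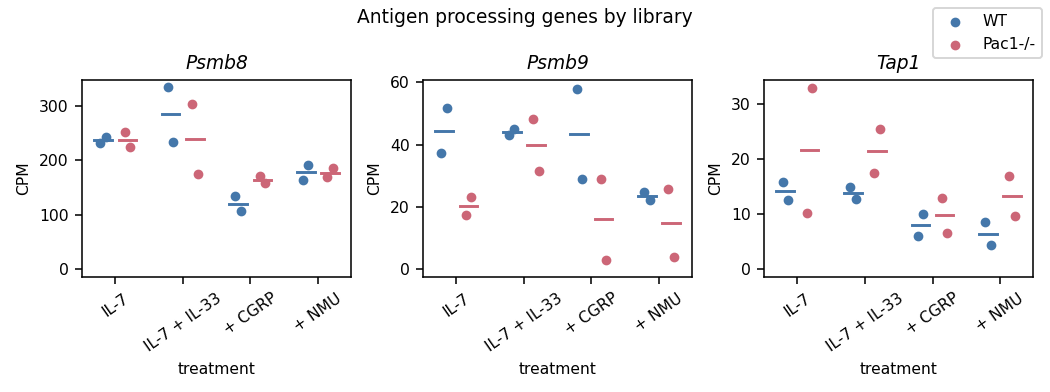
CPM of Psmb8, Psmb9, and Tap1 in each library (points) by treatment and genotype, with bars for the mean of 2 libraries. Psmb8 libraries with CGRP lie between 106 and 171 CPM and those with IL-33 between 175 and 335 CPM.

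Over the whole set, 1 of 28 genes was called in this comparison, beside 2.76% of all tested genes in either direction and 1.11% lower with CGRP. DESeq2 also called only Psmb8 among the 28, where it called 8.7% of all genes. Without adjustment 5 had P under 0.05, all of them lower with CGRP, and the share of all tested genes at that P was not counted. The median log2 fold change was -0.86, with 21 of 28 below 0, beside -0.09 for all tested genes, of which 46.8% lay above 0. By role, all 5 GTPases were below 0, from -1.99 to -0.74, as were the 3 antigen processing genes, from -0.97 to -0.66, and the 3 ADP-ribosylation and ubiquitin genes, from -2.02 to -0.67. Both sensors were below 0, at -0.60 and -0.02. Of the 6 antiviral effectors 4 were below and 2 above 0, and of the 4 other induced genes 3 were below and 1 above. The 4 transcription factors, Irf1, Irf7, Irf9, and Stat2, were all above 0 when averaged over the genotypes, from 0.39 to 0.97. From IL-33 to CGRP, mean Irf1 went from 19.8 to 61.5 CPM in WT and from 64.7 to 36.1 CPM in Pac1-/- libraries. Irf9 went from 15.3 to 44.1 CPM in WT and from 21.7 to 17.9 CPM in Pac1-/- libraries. The means of Irf7 and Stat2 were higher with CGRP in both genotypes. No gene of these roles except Psmb8 passed the threshold, and differences between roles were not tested.

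Ifi35, an interferon-induced leucine zipper protein, was next in this comparison. It had 183, 105, 172, and 115 CPM with IL-33 and 62.9, 107, 102, and 50.04 CPM with CGRP, so that the groups overlapped between 105 and 107 CPM. Its log2 fold change was -0.84 ± 0.29 (edgeR adjusted P = 0.16). Parp14, an ADP-ribosyltransferase, had 44.4, 36.8, 23.4, and 38.9 CPM with IL-33 and 0, 9.98, 18.7, and 12.3 CPM with CGRP, without overlap (log2 fold change -2.02 ± 0.90, edgeR adjusted P = 0.28). Usp18, the protease that removes ISG15 from proteins and also blocks IFNAR signalling, had no read in any CGRP library and 131 counts over the IL-33 libraries, at least 31.1-fold lower against a floor of 3 counts over the group (edgeR adjusted P = 0.23). Oas3 was likewise without a read with CGRP, against 124 counts with IL-33, at least 29.4-fold lower (edgeR adjusted P = 0.21). Both genes also lacked reads in several libraries of the other treatments. Such bounds, here and below, cover counting error only and leave out the scatter between libraries.

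Markers of other cell types and the mitochondrial share also differed between CGRP and IL-33 libraries. The summed level of 4 B cell markers was 35.4 to 281 CPM with CGRP and 5.71 to 17.5 CPM with IL-33, and that of 3 plasmacytoid dendritic cell markers was 34.2 to 156 and 3.004 to 16.9 CPM, with Siglech, which defines these cells, at 0 in every CGRP library. Mitochondrial genes took 8.30 to 12.6% of counts with CGRP and 3.94 to 7.96% with IL-33. The sum of the 4 lung epithelial markers was lower with CGRP, at 11.2 to 25.1 CPM against 42.3 to 83.3 CPM with IL-33. In each of these treatments 2 of the 4 reached 10 counts in a library. The summed ILC2 markers were 11545 to 13125 CPM with CGRP and 9550 to 11478 CPM with IL-33. The part of these differences in the values above was not tested.

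NMU activates ILC2s, and no gene of the set was called when it was added to IL-33 (edgeR; 0.187% of all genes called). DESeq2 called none of the 28 either, with 1.47% of all genes, and 3 had an unadjusted P under 0.05, all lower with NMU. The median log2 fold change was -0.67, with 22 of 28 below 0, beside -0.08 for all tested genes. The lowest adjusted P was 0.63, for Psmb8. It was at 164 and 191 CPM in WT and 169 and 185 CPM in Pac1-/- NMU libraries, 2 of them below the lowest IL-33 library and 2 within the IL-33 range (log2 fold change -0.56 ± 0.21, edgeR adjusted P = 0.63). Ddx58, which encodes the RNA sensor RIG-I, had 12.9 and 32.4 CPM in WT and 26.9 and 31.6 CPM in Pac1-/- NMU libraries. With IL-33 it had 70.8 and 54.8 CPM in WT and 39.2 and 43.0 CPM in Pac1-/- libraries, all above the NMU libraries (log2 fold change -0.98 ± 0.44, edgeR adjusted P = 0.75). Xaf1, an interferon-induced promoter of apoptosis, had 13.1, 6.13, 2.10, and 12.8 CPM with NMU and 23.0, 28.1, 12.4, and 22.8 CPM with IL-33, and the groups overlapped in 1 IL-33 library (log2 fold change -1.33 ± 0.61, edgeR adjusted P = 0.76). The 4 lung epithelial markers summed to 35.6 to 331 CPM with NMU and 42.3 to 83.3 CPM with IL-33, and the 5 macrophage and monocyte markers to 2.79 to 123 and 1.19 to 15.8 CPM. Their part in these values was not tested.

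**Figure D4:**
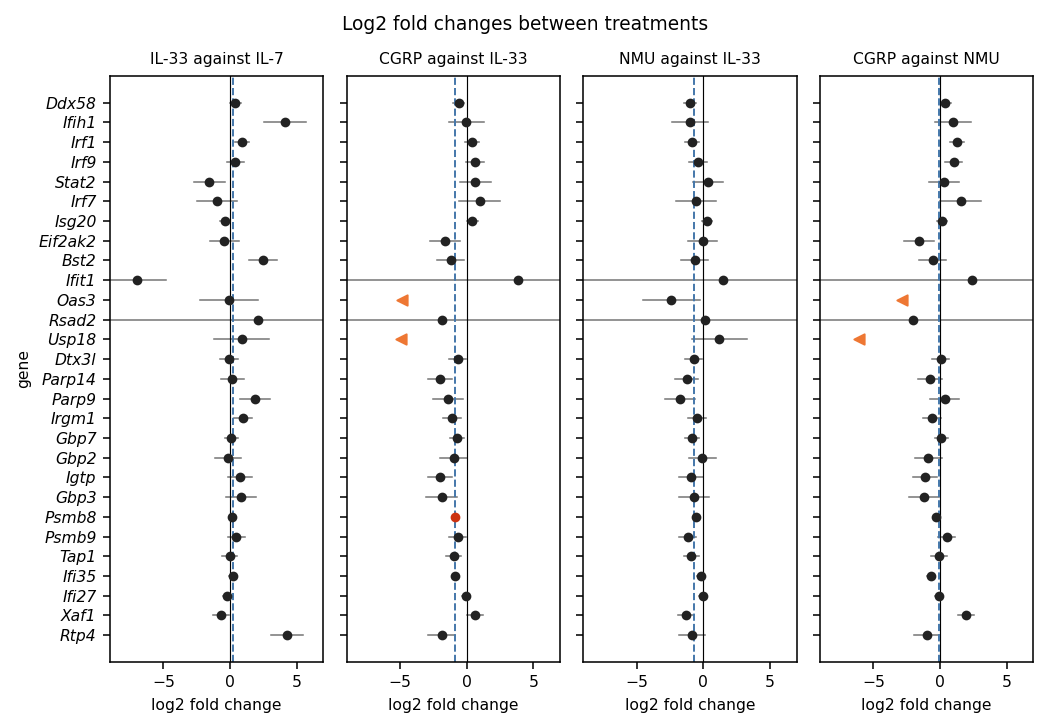
Log2 fold changes of the 28 tested genes in the 4 treatment comparisons (points, with bars of 1 SE that are clipped at the axis limits; triangles are lower bounds for Oas3 and Usp18, which had no read with CGRP). Dashed lines are the medians of the 28, at 0.20, -0.86, -0.67, and -0.07, and the red point is Psmb8 with CGRP, the only edgeR call.

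CGRP and NMU were also set against each other, since both were added on top of IL-33. No member was called by edgeR, which called 5.47% of all genes, 2.63% higher and 2.84% lower with CGRP, and 4 had an unadjusted P under 0.05. DESeq2 called 2 of 28, Xaf1 higher and Usp18 lower with CGRP, beside 12.6% of all genes. The median log2 fold change was -0.07, with 13 above and 15 below 0, beside 0.02 for all genes. Xaf1 had 18.4, 29.9, 38.3, and 50.8 CPM with CGRP, all above its NMU values given above (log2 fold change 1.96 ± 0.62, edgeR adjusted P = 0.090, DESeq2 adjusted P = 0.0091). Xaf1 passed in edgeR when Pac1-/- NMU replicate 2, Pac1-/- CGRP replicate 1, or WT IL-7 replicate 1 was left out. Usp18 had 0.770 and 5.68 CPM in WT and 0 and 12.4 CPM in Pac1-/- NMU libraries, and none with CGRP, at least 66.2-fold lower (edgeR adjusted P = 0.14, DESeq2 adjusted P = 0.022). Pac1-/- NMU replicate 2 gave 138 of the 194 NMU counts, and without it the bound was 27.3-fold. Usp18 passed in edgeR when any of the 4 IL-7 libraries, Pac1-/- IL-33 replicate 1, or Pac1-/- NMU replicate 1 was left out, and without a filter on low counts. Irf1, a transcription factor that drives the immunoproteasome genes, had 52.1 and 70.9 CPM in WT and 18.5 and 53.7 CPM in Pac1-/- CGRP libraries. With NMU it had 23.7 and 37.3 CPM in WT and 13.5 and 11.4 CPM in Pac1-/- libraries, which overlapped the lowest CGRP library (log2 fold change 1.27 ± 0.54, edgeR adjusted P = 0.21). Ifi35, at 135, 102, 131, and 142 CPM with NMU, overlapped its CGRP values and had a log2 fold change of -0.66 ± 0.29 (edgeR adjusted P = 0.23). Other measures separated these treatments without overlap. With CGRP and NMU, B cell markers summed to 35.4 to 281 and 0 to 15.4 CPM. Plasmacytoid dendritic cell markers summed to 34.2 to 156 and 0.557 to 8.47 CPM, with Siglech at 0 in both treatments. Lung epithelial markers summed to 11.2 to 25.1 and 35.6 to 331 CPM. Mitochondrial genes took 8.30 to 12.6% and 3.32 to 5.54% of counts, and the part of these measures was not tested.

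The comparison of genotypes asked whether loss of PAC1 changed these genes. Over the 4 treatments no interferon-stimulated gene was called by edgeR, which called 0.113% of all genes and 0.0668% as higher in Pac1-/- libraries, or by DESeq2, which called 0.895%. Without adjustment 3 of 28 had P under 0.05, and the median log2 fold change was 0.08, with 16 above 0, beside 0.04 for all genes. Psmb8 was at 205 ± 72.1 CPM in WT and 205 ± 50.9 CPM in Pac1-/- libraries (SD, n = 8, log2 fold change 0.05 ± 0.15). Isg20 ran from 20.8 through a median of 27.1 to 47.3 CPM in WT and from 24.8 through 48.0 to 76.2 CPM in Pac1-/- libraries, which overlapped (log2 fold change 0.73 ± 0.28, edgeR adjusted P = 0.64). Ddx58 ran from 12.9 through 50.2 to 96.2 CPM in WT and from 16.2 through 29.2 to 43.0 CPM in Pac1-/- libraries (log2 fold change -0.71 ± 0.31, edgeR adjusted P = 0.70). These ranges overlapped as well. Rtp4 ran from 0 through 8.64 to 18.9 CPM in WT and from 0 through 4.82 to 10.5 CPM in Pac1-/- libraries (log2 fold change -1.84 ± 0.73, edgeR adjusted P = 0.65). This value averages in the Pac1-/- IL-7 group, whose 0 counts make it no bound, and the CGRP groups had the opposite order.

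Within single treatments 2 libraries were set against 2. No gene of the set was called by edgeR with IL-7 or with IL-33, where it called 0.00668% of all genes each, with CGRP (0.107%), or with NMU (0.02%). The counts with an unadjusted P under 0.05 were 2, 1, 4, and 0 of 28. DESeq2 called 1 member with IL-7, beside 0.421% of all genes, 0 with IL-33 (0.254%), 2 with CGRP (2.62%), and 0 with NMU (0.314%). The member called with IL-7 was Rtp4, without a read in both Pac1-/- libraries and with 406 counts over both WT libraries, at least 126-fold lower against a floor of 3 counts over the group (edgeR adjusted P = 0.89, DESeq2 adjusted P = 0.00022). With CGRP the order was turned, and Rtp4 was at 0.980 and 0 CPM in WT and 8.12 and 10.5 CPM in Pac1-/- libraries (log2 fold change 4.20 ± 1.57, edgeR adjusted P = 0.55, DESeq2 adjusted P = 0.042). Gbp3, a guanylate-binding protein, had 0 and 0.658 CPM in WT and 25.2 and 9.70 CPM in Pac1-/- CGRP libraries (log2 fold change 5.71 ± 1.93, edgeR adjusted P = 0.50, DESeq2 adjusted P = 0.010). Ifit1 had no read in both WT CGRP libraries and 18.7 and 6.21 CPM in the Pac1-/- ones, at least 89.5-fold higher with 232 counts (edgeR adjusted P = 0.53). Replicate 1 gave 184 of these counts, and without it the bound was 42.1-fold. The bounds for Rtp4 and Ifit1 leave out the scatter between libraries. In these 3 genes (Rtp4, Gbp3, and Ifit1) the 2 genotypes did not overlap with CGRP, and this was not particular to them. With CGRP the genotypes were also apart in Parp14, Igtp, and Psmb8, higher in Pac1-/- libraries, and in Ddx58 and Irf9, lower there, among others. How many of all tested genes separated in this way was not counted. Irf1 had 20.2 and 19.4 CPM in WT and 46.3 and 83.0 CPM in Pac1-/- IL-33 libraries (log2 fold change 1.70 ± 0.77, edgeR adjusted P = 0.95).

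Whether CGRP, NMU, or IL-33 acted differently on these genes in Pac1-/- ILC2s was tested directly as an interaction. edgeR called no gene of the set and 0% of all genes in each of the 3 interactions, and the counts with an unadjusted P under 0.05 were 4 for IL-33, 3 for CGRP, and 2 for NMU. DESeq2 called 1 member, Rtp4, for IL-33 (0.134% of all genes), 0 for CGRP (0.875%), and 0 for NMU (0.187%). Psmb8, the gene that fell with CGRP, was lower with CGRP than with IL-33 in both genotypes, at 284 ± 72.4 and 121 ± 20.2 CPM in WT and 240 ± 90.7 and 165 ± 8.20 CPM in Pac1-/- libraries (SD, n = 2).

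**Figure D5:**
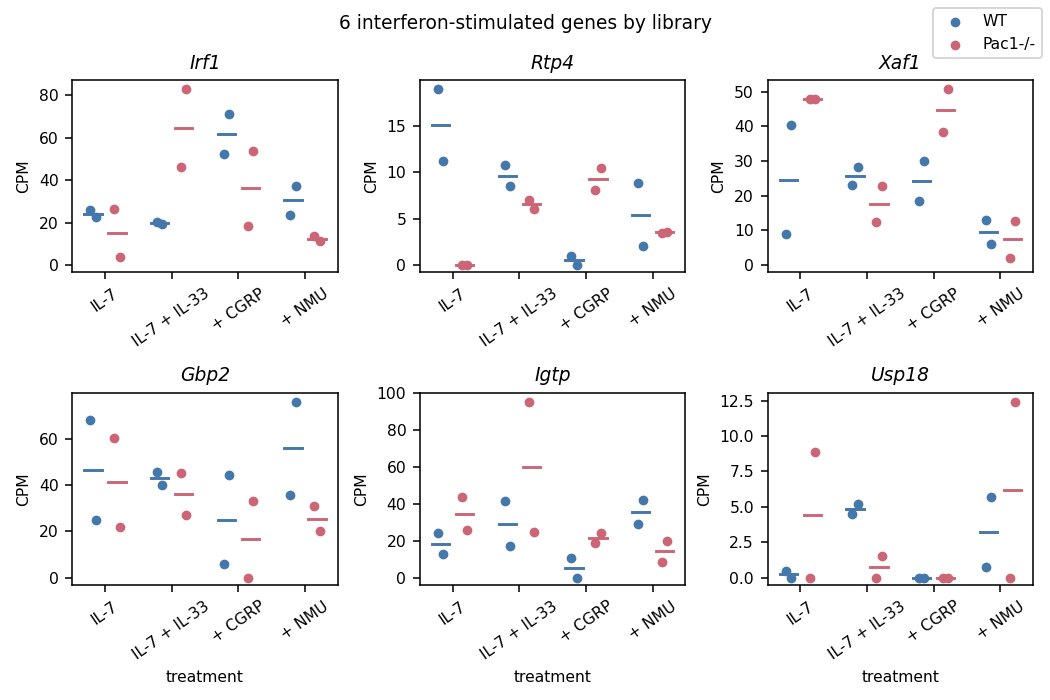
CPM of Irf1, Rtp4, Xaf1, Gbp2, Igtp, and Usp18 in each library (points) by treatment and genotype, with bars for the mean of 2 libraries. Rtp4 is at 0 in both Pac1-/- IL-7 libraries, and Gbp2 has 0 and 32.97 CPM in the Pac1-/- CGRP libraries.

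Among the remaining genes, scatter between libraries was wide. Irgm1, the most abundant GTPase in CPM, had 130, 57.5, 170, and 36.1 CPM with IL-33 and 17.01, 53.4, 109, and 10.7 CPM with CGRP, with a 10.2-fold difference between the 2 Pac1-/- CGRP libraries. Gbp7 ran from 11.7 through a median of 54.0 to 87.2 CPM over the 16 libraries. Gbp2 had 0 and 32.97 CPM in the Pac1-/- CGRP libraries. Psmb9, the beta 1i subunit of the immunoproteasome, ran from 3.10 through 29.0 to 57.9 CPM. It neighbours Tap1, which encodes a subunit of the peptide transporter, and their exons overlap on opposite strands by 212 bases, so reads there cannot be assigned without strand. Eif2ak2, the kinase PKR that stops translation, ran from 0 through 10.4 to 23.7 CPM, and Irf9 ran from 1.01 through 16.2 to 47.4 CPM. Dtx3l, a ubiquitin ligase that works with PARP9, ran from 3.62 through 26.5 to 46.1 CPM, and its exons overlap those of Parp9 by 458 bases on the opposite strand. Ifi27, by contrast, stayed between 58.8 and 158 CPM in every library, with a median of 105 CPM.

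Upstream of these genes, the interferon ligand genes examined were almost absent from the ILC2 libraries. Of these 8 ligand genes, none entered the tests or had more than 19 counts in a library. Not every gene of the Ifna family was among them. Ifng had 19 counts in 1 of 16 libraries, WT IL-7 replicate 2, and none elsewhere, and Ifnb1 had 1 count in the same library. The receptors were present. Ifngr1 was the most abundant at 842 CPM on average, with a range of 294 to 1772 CPM, and Ifngr2 had 10.3 to 51.1 CPM. Ifnar1 had 5.45 to 35.6 CPM, and Ifnar2 had 8.07 to 44.3 CPM. Socs1, the feedback inhibitor of Janus kinases, had 2.76 to 49.8 CPM. None of these 5 genes was called by edgeR or DESeq2 in any of the 12 comparisons.

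Of 43 genes of interferon induction and signalling, 31 entered the tests, and 3 were called lower and 0 higher with CGRP than with IL-33, beside the 1.11% of all tested genes that edgeR called lower there. Irf4, a transcription factor of activated lymphocytes, had 26.1, 31.0, 17.7, and 31.5 CPM with IL-33 and 6.86, 7.02, 2.44, and 8.27 CPM with CGRP (log2 fold change -2.12 ± 0.46, edgeR adjusted P = 0.026). Myd88, the adaptor that also carries IL-33 signals from its receptor, had 28.3, 35.1, 79.3, and 26.7 CPM with IL-33 and 0, 1.32, 15.73, and 4.91 CPM with CGRP (log2 fold change -3.98 ± 0.86, edgeR adjusted P = 0.027). Tmem173, which encodes the DNA-sensing adaptor STING, had 120, 47.6, 131, and 59.0 CPM with IL-33 and 67.6, 10.5, 6.8, and 5.56 CPM with CGRP, with WT CGRP replicate 1 inside the IL-33 range (log2 fold change -2.52 ± 0.61, edgeR adjusted P = 0.043). Against NMU, 3 of 31 were called lower with CGRP, beside 2.84% of all tested genes. They were Irf4 (log2 fold change -3.95 ± 0.49, edgeR adjusted P = 0.00054), Irf8 (-4.75 ± 0.76; 0.0027), and Myd88 (-3.98 ± 0.86; 0.017). Irf4 had 108, 38.7, 139, and 101 CPM and Irf8 had 24.9, 52.5, 44.7, and 37.9 CPM with NMU, whereas Irf8 had 0.267, 1.54, 1.52, and 3.36 CPM with CGRP. In the other 10 comparisons edgeR called 0 of the 31, with 0 to 3 at an unadjusted P under 0.05. The DESeq2 shares of all genes that follow count calls in either direction, and shares by direction were not computed. DESeq2 called 5 lower with CGRP than with IL-33, beside 8.7% of all genes, and 5 lower with CGRP than with NMU, beside 12.6%. It called 2 higher with NMU than with IL-33 (Irf4 and Irf8), beside 1.47%, and 2 between genotypes with CGRP (Myd88 higher and Tmem173 lower in Pac1-/- libraries), beside 2.62%.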

How the data were processed

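The authors amplified full-length cDNA from about 500 sorted lung ILC2s per library, sequenced paired ends on a NovaSeq, aligned reads to mm10 with HISAT2, and tested with DESeq2. They deposited raw counts per gene for 16 libraries. The counting tool, annotation release, strand setting, and treatment of duplicates are not given in the sources used here. Samples were grouped by the genotype and treatment in their labels, and 0 columns of per-sample values were left unused.

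Counts were tested with edgeR 4.0.16 in R 4.3.3 (TMM, filterByExpr by group, quasi-likelihood test on 8 group means, Benjamini-Hochberg adjustment over 14979 genes). A gene was called at an adjusted P under 0.05 and a fold above 1.5. The SE of a log2 fold change was derived from the quasi-likelihood test. It is the absolute log2 fold change divided by the square root of the F statistic. Where a group had only 0 counts, this SE does not measure the uncertainty of the fold. DESeq2 1.42.0, RLE scaling, other filters, a replicate block, fits of the compared libraries alone, and leaving out each library were alternatives. The code was tested on simulated data. GENCODE M21 held 51633 of the 51912 identifiers and gave exon lengths. Near-identical genes were found with BLAST 2.17.0 (at least 95% over at least 100 bases). Promoter windows came from RefSeq.

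The members and lists were chosen with earlier results of these data known. Genes named with values were those called, the 2 most abundant tested members of each role, and the 2 with the smallest P in each treatment comparison. Bst2, Gbp2, Gbp3, Igtp, Irf7, Oas3, Parp9, Rsad2, Tap1, and the untested members were named after their values were seen. Of other interferon genes, those called were named, with Ifng, Ifnb1, the 4 receptors, and Socs1. A further gene that this rule names is not reported here.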

Additional observations from a re-analysis of the deposited data

Results flagged for a closer look

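In 2 genes the WT and Pac1-/- libraries moved in opposite directions under the same contrast, with an unadjusted P under 0.05 for the interaction, and no interaction passed the edgeR adjustment. Each move sets 2 libraries against 2, and how many of all tested genes moved in this way was not counted. Between IL-7 and IL-33, Irf1 was lower in WT and higher in Pac1-/- libraries, with an interaction log2 value of 2.36 (edgeR adjusted P = 0.93). Between IL-33 and NMU the order was turned, at -3.00 (edgeR adjusted P = 0.91), and the 2 Pac1-/- IL-33 libraries, at 46.3 and 83.0 CPM, enter both values. Rtp4 gave 9.83 between IL-7 and IL-33 (edgeR adjusted P = 0.93), a fitted value that is no bound because both Pac1-/- IL-7 libraries had 0 counts. Between IL-33 and CGRP, Rtp4 gave 4.75 (edgeR adjusted P = 0.81), lower in WT and higher in Pac1-/- libraries.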

How the results depend on the processing

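The number of members called moved in few settings other than leaving out a library. DESeq2 called 1 with IL-33 against IL-7, 2 with CGRP against NMU, 1 and 2 between genotypes with IL-7 and with CGRP, and 1 in the genotype by IL-33 interaction, where edgeR called 0. Without a filter on low counts, 3 were called with CGRP against IL-33 (Igtp, Psmb8, and Usp18, all lower) and 2 with CGRP against NMU. A minimum of 10 counts in every library, which left 13 members tested, gave 1 with CGRP against NMU. Fitting only the libraries compared gave 0 with CGRP against IL-33. Leaving out each library in turn gave 0 to 3 calls with CGRP against IL-33, 0 to 2 with CGRP against NMU, 0 to 1 between genotypes over the 4 treatments, 0 to 2 between genotypes with CGRP, and 0 to 1 in the genotype by CGRP interaction. Which members were called depended on the library left out: without WT CGRP replicate 2 they were Gbp7, Parp14, and Parp9, and without Pac1-/- CGRP replicate 2 they were Eif2ak2 and Gbp2, in each case lower with CGRP than with IL-33. Such a fit leaves a group with 1 library, which is assumed to vary like the other groups, and in that library Parp14 and Parp9, or Eif2ak2 and Gbp2, had 0 counts. Lower bounds were recomputed without single libraries as an alternative chosen after seeing the data, and of the bounds given here those that moved by over 1.5 times were Usp18 with CGRP against NMU (66.2 to 27.3-fold) and Ifit1 between genotypes with CGRP (89.5 to 42.1-fold).

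The log2 fold change of Psmb8 reversed in 2 comparisons, in neither of which it was called. With IL-33 against IL-7 it ran from -0.11 (without Pac1-/- IL-33 replicate 1) to 0.27, and between genotypes from -0.045 (without the same library; -0.01 without WT IL-33 replicate 2) to 0.15. With CGRP against IL-33 Psmb8 stayed called under RLE scaling (-0.84, edgeR adjusted P = 0.047). Replicate numbers did not pair the samples: over 28 pairs of groups the correlation of same-numbered deviations was -0.064 to 0.039, with 0 above 0.1. With the replicate block 1 member was called with CGRP against IL-33 (Psmb8, -0.87, edgeR adjusted P = 0.044) and 0 in the other 11 comparisons.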

Other observations

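A wider list of 61 other interferon-stimulated genes, chosen with earlier results of these data known, held 56 that entered the tests. With CGRP against IL-33, 2 of 56 fell and 0 rose in edgeR, and DESeq2 called 1 higher and 10 lower. Of all tested genes, edgeR called 2.76% in either direction and 1.11% lower. DESeq2 called 8.7% in either direction, and its share by direction was not computed. Tapbp, which encodes tapasin and loads peptides onto MHC class I, had 79.7, 68.9, 97.2, and 122 CPM with IL-33 and 26.7, 20.3, 43.3, and 49.1 CPM with CGRP, without overlap (log2 fold change -1.45 ± 0.28, edgeR adjusted P = 0.013). Ly6a, which encodes the surface protein Sca-1, had 3026, 4259, 3812, and 2253 CPM with IL-33 and 2092, 1662, 1419, and 1696 CPM with CGRP, also without overlap (-0.96 ± 0.22, edgeR adjusted P = 0.034).

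With CGRP against NMU, 2 of 56 rose and 0 fell in edgeR, beside 2.63% of all tested genes called higher and 2.84% called lower, so the share of the list was near that of all genes. Samhd1, which depletes the nucleotides that viral DNA synthesis needs, had 154, 387, 297, and 255 CPM with CGRP and 162, 142, 66.2, and 93.6 CPM with NMU, with 1 CGRP library inside the NMU range (log2 fold change 1.31 ± 0.31, edgeR adjusted P = 0.028). Ifi206, of the PYHIN family of DNA sensors, had 27.0, 3.18, 7.61, and 29.9 CPM with CGRP and at most 1.08 CPM with NMU (5.54 ± 1.36, edgeR adjusted P = 0.031).

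Between genotypes over the 4 treatments 1 of 56 was called by edgeR, beside 0.113% of all tested genes, and 1 by DESeq2, beside 0.895%. Ifi208, another PYHIN gene, had 6.28 and 15.1 CPM with IL-7, 8.03 and 7.58 with IL-33, 46.0 and 14.5 with CGRP, and 11.7 and 4.32 with NMU in Pac1-/- libraries. In WT it had 8.80 and 1.38 CPM with IL-7, and 0 to 0.110 CPM in the other 6 libraries. Outside IL-7 the genotypes did not overlap (log2 fold change 7.02 ± 0.84, edgeR adjusted P = 0.011). The WT libraries at 0 make this fitted value no bound, and PYHIN genes share sequence, so the assignment of reads among them is uncertain. In the other 9 comparisons edgeR called 0 of the 56, with 1 to 10 at an unadjusted P under 0.05. Among these, DESeq2 called 5 of 56 with IL-33 against IL-7, beside 1.98% of all genes in either direction. It called 4 of 56 between genotypes with CGRP, beside 2.62%. In the rest it called 0 or 1, beside 0.134% to 1.47% of all genes.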
